A study of Homo sapiens with 27 samples.

Results

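The 51 genes described here lie on the long arm of chromosome 1 (1q), from ATP1B1 to ETNK2. They were picked by symbol because many of them had more RNA in PC3 cells carrying guide RNAs against RIPK2 than in PC3 cells with a control guide. They are 51 of 27546 gene symbols listed in at least 1 of the count tables. RNA was sequenced in 27 libraries from 3 human prostate cancer lines: 22Rv1, grown from a xenograft, and DU145 and PC3, both from metastases. Each line gave 3 libraries with a control guide (control gRNA 1, genotype WT) and 3 with each of a pair of guides labelled as RIPK2 knockouts. These were gRNA 1 and gRNA 10 in 22Rv1, and gRNA 2 and gRNA 10 in DU145 and PC3. RIPK2 is the kinase that relays signals from the NOD receptors for bacterial cell wall fragments. Whether a population was a clone or a pool is not given in the sources used here, nor is whether the 3 libraries of a group came from separate cultures. The errors and p-values therefore measure only the spread between these libraries, which may be technical.

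Genes that sit together on a chromosome arm are lost or gained together when a cancer cell changes the number of copies of that arm, and gain of 1q is frequent in human cancers. The RNA of genes on such an arm often follows its copy number, with exceptions for genes that are buffered or regulated on their own. This is background: DNA copy number was not tested here. The 51 genes otherwise differ in function, and encode ion pumps, Golgi and nuclear envelope proteins, ubiquitin enzymes, RNA-binding proteins, chromatin factors and motor proteins.

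Total counts ran from 17958558 to 20650819 per library. Of the 51 genes, 50 passed the filter on low counts in each line. METTL13, a methyltransferase of a translation elongation factor, was listed under the symbol EEF1AKNMT. ZC3H11A, which encodes a zinc finger protein of mRNA export, did not pass, with at most 3 counts per library in PC3, and its span overlaps that of ZBED6 by 58502 bases. RIPK2 RNA fell in 5 of the 6 knockout groups in edgeR's test. Its log2 fold changes, first guide first, were -0.94 ± 0.12 and -1.63 ± 0.12 (SE) in 22Rv1, -1.84 ± 0.12 and -0.29 ± 0.11 in DU145 and -1.55 ± 0.06 and -1.15 ± 0.05 in PC3. In DU145 with gRNA 10 the difference did not pass the test (adjusted p = 0.0614, edgeR, and 0.000576 to 0.184 over the alternatives). There, RIPK2 stood at 33.4 to 36.4 CPM (counts scaled by effective library size) against 39.4 to 44.4 in the controls. The epithelial keratins KRT8 and KRT18 were present in all 3 lines, at 122 CPM or more. Among the knockout groups, 1 library stood apart in each of 22Rv1 and DU145. Mitochondrial genes took 16.7% of the counts in 22Rv1 gRNA 1 replicate 3, against 2.10% and 1.92% in the other libraries of its group. In 22Rv1 control replicate 1 these genes took 0.52%, against 1.24% and 1.28% in the other controls of that line. They took 2.89% in DU145 gRNA 2 replicate 3, against 1.75% and 2.12% in its group, but 2.70%, 2.46% and 2.77% with gRNA 10. The library size factor (TMM) of DU145 gRNA 2 replicate 3 was 0.902, against 0.988 and 1.01 in its group.

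Neighbouring members that start head to head are printed first, because they show how far adjacent genes differed in PC3. Each window holds 250 bases before to 50 bases after the start (RefSeq, GRCh38.p14). It is in lower case, with capitals marking matches on either strand to the GC box GGGCGG, the CCAAT box, the TATA box or the E-box searched. ARPC5 (chr1:183635734-183636033, minus strand) and RGL1 (chr1:183635859-183636158, plus strand) start 326 bases apart, and their windows share 175 bases. TRMT1L (chr1:185157049-185157348, minus strand) and SWT1 (chr1:185156810-185157109, plus strand) start 38 bases apart, with the transcripts overlapping, and their windows share 61 bases.
ARPC5: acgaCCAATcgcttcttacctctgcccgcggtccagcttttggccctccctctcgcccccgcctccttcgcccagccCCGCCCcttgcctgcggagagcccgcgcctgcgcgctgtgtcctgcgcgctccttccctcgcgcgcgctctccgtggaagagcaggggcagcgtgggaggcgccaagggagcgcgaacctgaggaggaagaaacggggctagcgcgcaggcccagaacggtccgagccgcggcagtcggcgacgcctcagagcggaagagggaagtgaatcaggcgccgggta
RGL1: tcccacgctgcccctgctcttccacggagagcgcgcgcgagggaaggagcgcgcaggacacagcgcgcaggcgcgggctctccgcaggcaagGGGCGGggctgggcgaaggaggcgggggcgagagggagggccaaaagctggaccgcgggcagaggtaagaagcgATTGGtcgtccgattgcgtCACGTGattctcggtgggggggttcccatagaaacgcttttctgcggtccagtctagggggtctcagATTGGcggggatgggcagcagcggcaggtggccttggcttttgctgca
TRMT1L: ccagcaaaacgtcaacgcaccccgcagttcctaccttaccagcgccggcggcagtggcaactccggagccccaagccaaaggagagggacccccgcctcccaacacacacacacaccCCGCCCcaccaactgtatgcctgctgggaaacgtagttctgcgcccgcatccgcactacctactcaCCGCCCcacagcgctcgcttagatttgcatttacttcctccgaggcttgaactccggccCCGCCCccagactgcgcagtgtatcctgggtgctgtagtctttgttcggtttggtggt
SWT1: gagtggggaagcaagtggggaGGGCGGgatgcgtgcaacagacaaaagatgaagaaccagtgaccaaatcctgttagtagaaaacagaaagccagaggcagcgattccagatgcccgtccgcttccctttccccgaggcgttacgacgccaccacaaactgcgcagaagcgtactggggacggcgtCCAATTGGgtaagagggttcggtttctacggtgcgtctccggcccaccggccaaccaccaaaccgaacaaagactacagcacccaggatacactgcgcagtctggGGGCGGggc

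In PC3, RNA of the 1q genes was higher with both RIPK2 guides than with the control guide. The median log2 fold change of the 50 genes was 0.62 with gRNA 2, with quartiles at 0.29 and 0.94, and 0.60 with gRNA 10, with quartiles at 0.21 and 0.92. Over all 14718 genes tested in PC3 the medians were 0.01 and 0.01. With gRNA 2, 47 of the 50 genes lay above 0, and with gRNA 10, 43 did. Of all 14718 genes tested, 7439 and 7465 lay above 0. At an adjusted p below 0.05 in edgeR's quasi-likelihood test, 42 were called higher with gRNA 2, where 32.1% of all genes tested were, and none lower, where 31.5% were. That count of none lower was also 0 at an unadjusted p under 0.05 and 0 with DESeq2. With gRNA 10, 41 were called higher, where 37.9% of all genes were, and 4 lower, where 35.6% were. With both guides, 37 were called higher, where 17.9% of all genes were, and 0 lower, where 16.3% were. These contrasts chose the genes and share their control libraries, so nothing is read from these counts. In bulk RNA, a change in the share of cells of a kind and a change in RNA per cell cannot be told apart.

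**Figure D1:**
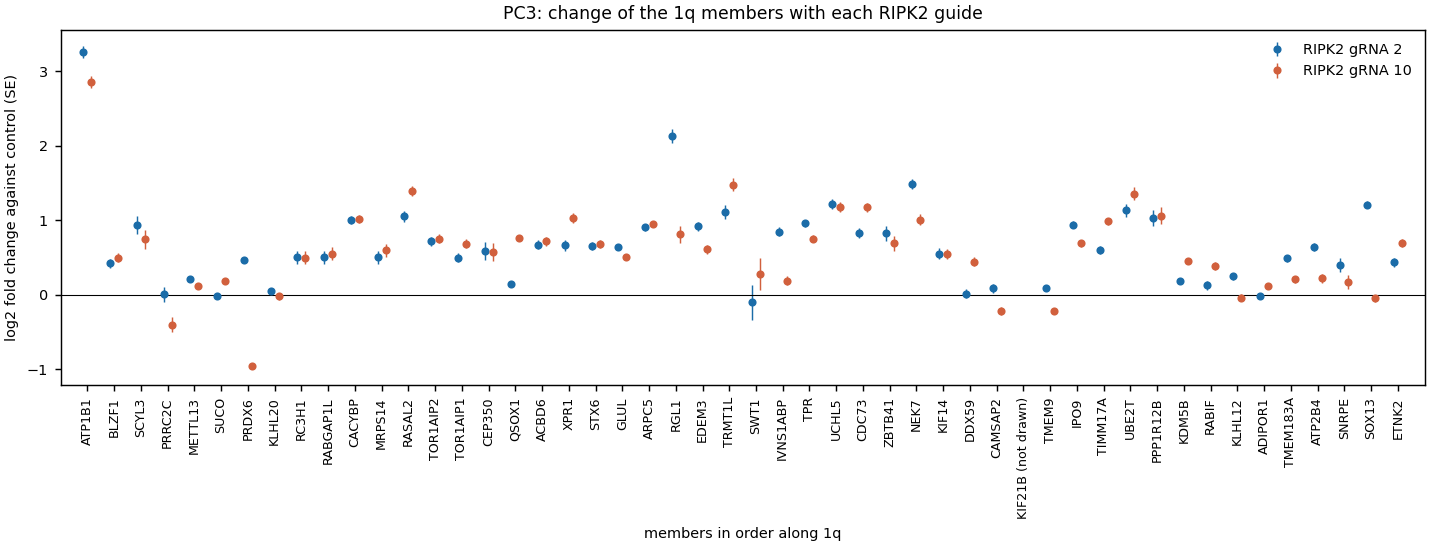
Log2 fold change (vertical axis) of the tested 1q genes in PC3 with RIPK2 gRNA 2 and gRNA 10 against the control guide, in order along 1q (horizontal axis), with standard errors. Of the genes drawn, ATP1B1 is highest with both guides, at 3.26 and 2.86, PRDX6, SOX13 and RGL1 differ between the guides, and KIF21B is not drawn because its controls had 0 counts.

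The libraries of a group lay close to each other. As log2(CPM + 0.5) minus the control mean, the median over the 50 genes was -0.01 to 0.01 in the 3 control libraries, 0.55 to 0.60 in the gRNA 2 libraries and 0.57 to 0.63 in the gRNA 10 libraries. No PC3 knockout library overlapped a control library on this measure. The genes were chosen on these same libraries, so the choice favoured that separation. Above the control mean lay 44 to 48 of the 50 genes in the gRNA 2 libraries, 43 to 44 in the gRNA 10 libraries and 22 to 27 in the controls.

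**Figure D2:**
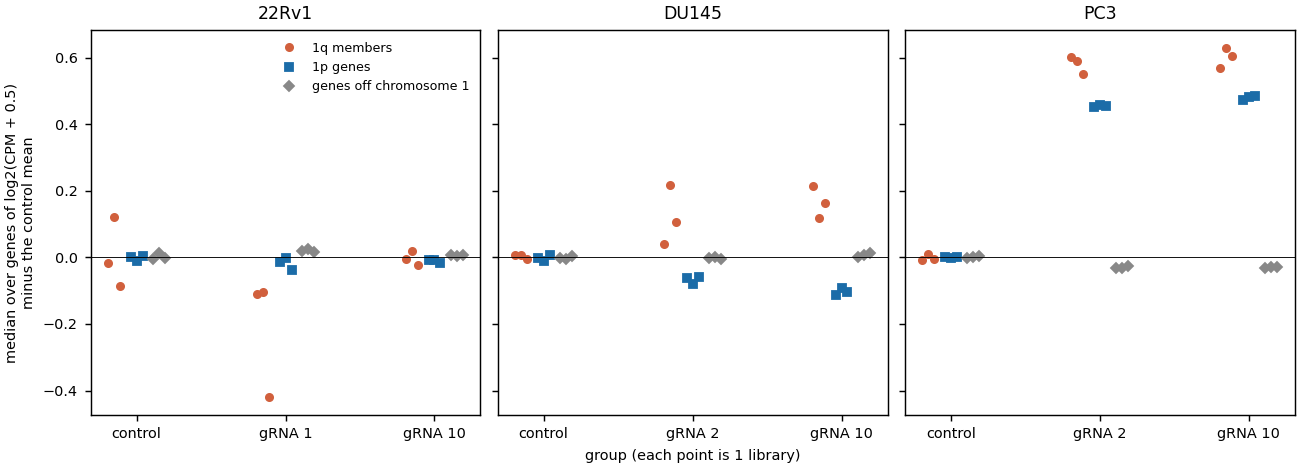
Median over genes of log2(CPM + 0.5) minus the control mean (vertical axis) for each library, by group (horizontal axis) and line (panels), for the 1q members, genes of 1p and genes off chromosome 1. In PC3 the members and the 1p genes lie above 0 in all 6 knockout libraries, the members at 0.55 to 0.60 and 0.57 to 0.63. The members were chosen on the PC3 libraries.

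Marker genes also differed between the PC3 groups. The 4 epithelial markers summed to 734 to 759 CPM in the controls, 921 to 972 CPM with gRNA 2 and 1641 to 1759 CPM with gRNA 10. Most of that sum was KRT8 and KRT18, so it does not describe the other markers of the list. EPCAM ran from 31.8 to 44.5 CPM and CDH1 from 14.8 to 21.0 CPM over the PC3 libraries. Of the markers of other cell types, the 3 of leukocytes summed to at most 0.433 CPM in any PC3 library. The 3 fibroblast markers summed to 62.9 to 65.1 CPM in the controls, 55.2 to 66 CPM with gRNA 2 and 70.0 to 73.8 CPM with gRNA 10, with DCN at 2 counts or fewer. That sum hides wider ranges of single markers. Over the PC3 libraries COL1A1 ran from 26.6 to 55.9 CPM and COL3A1 from 10.6 to 36.8 CPM. The 3 endothelial markers summed to 1.80 to 2.24 CPM in the controls, 8.75 to 9.81 CPM with gRNA 2 and 6.0 to 7.85 CPM with gRNA 10, with VWF and CDH5 at 2 counts or fewer each. The part of these differences in the 1q result was not tested.

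The higher level extended beyond the genes chosen. Their stretch runs over 35 Mb between starts, from 169106690 (the start of ATP1B1) to 204152044 (the end of ETNK2) on chromosome 1 of GRCh38. The 85 other tested genes inside it had medians of 0.65 and 0.63 with gRNA 2 and gRNA 10, and 60 and 54 of them were called higher while 5 and 15 were called lower. Over all genes tested, 32.1% and 37.9% were called higher and 31.5% and 35.6% lower. The 864 tested genes of the short arm, 1p, had medians of 0.50 and 0.51, with 685 and 665 called higher and 34 and 77 lower (79.3% and 77% higher, 3.94% and 8.91% lower). The 281 genes of 1q before ATP1B1 had medians of 0.36 and 0.24, and the 237 after ETNK2 had medians of 0.33 and 0.27. Genes off chromosome 1 had medians of -0.03 and -0.03. The name of the group therefore gives only where its members lie, since the rest of 1q and the short arm were higher too. No test compared these stretches.

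In blocks of 20 consecutive tested genes, all 42 blocks of 1p had a median above 0 with both guides, from 0.29 to 0.70 with gRNA 2 and from 0.18 to 0.97 with gRNA 10. All 6 full blocks inside the stretch did too, from 0.13 to 0.91 and from 0.24 to 0.95. The first of these, from ATP1B1 to PRDX6-AS1, was the lowest, at 0.13 and 0.24. The block from NMNAT2 to LINC01351, which holds RGL1, EDEM3 and TPR, stood at 0.91 and 0.71, and the block that ends with KDM5B at 0.71 and 0.95. The block just before ATP1B1 had medians of 0.24 and 0.13, and the block just after ETNK2 0.37 and 0.06. Of the 14 blocks of 1q before ATP1B1, 14 had a median above 0 with gRNA 2 and 12 with gRNA 10, the lowest at -0.13. Of the 11 full blocks after ETNK2, 11 did with gRNA 2 and 10 with gRNA 10, the lowest at -0.11. Chromosome 1 had the highest median of all chromosomes with each guide, 0.45 and 0.43. Next came chromosome 5 with gRNA 2, at 0.11, and chromosome 18 with gRNA 10, at 0.33, while chromosome 18 was the lowest with gRNA 2, at -0.33.

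**Figure D3:**
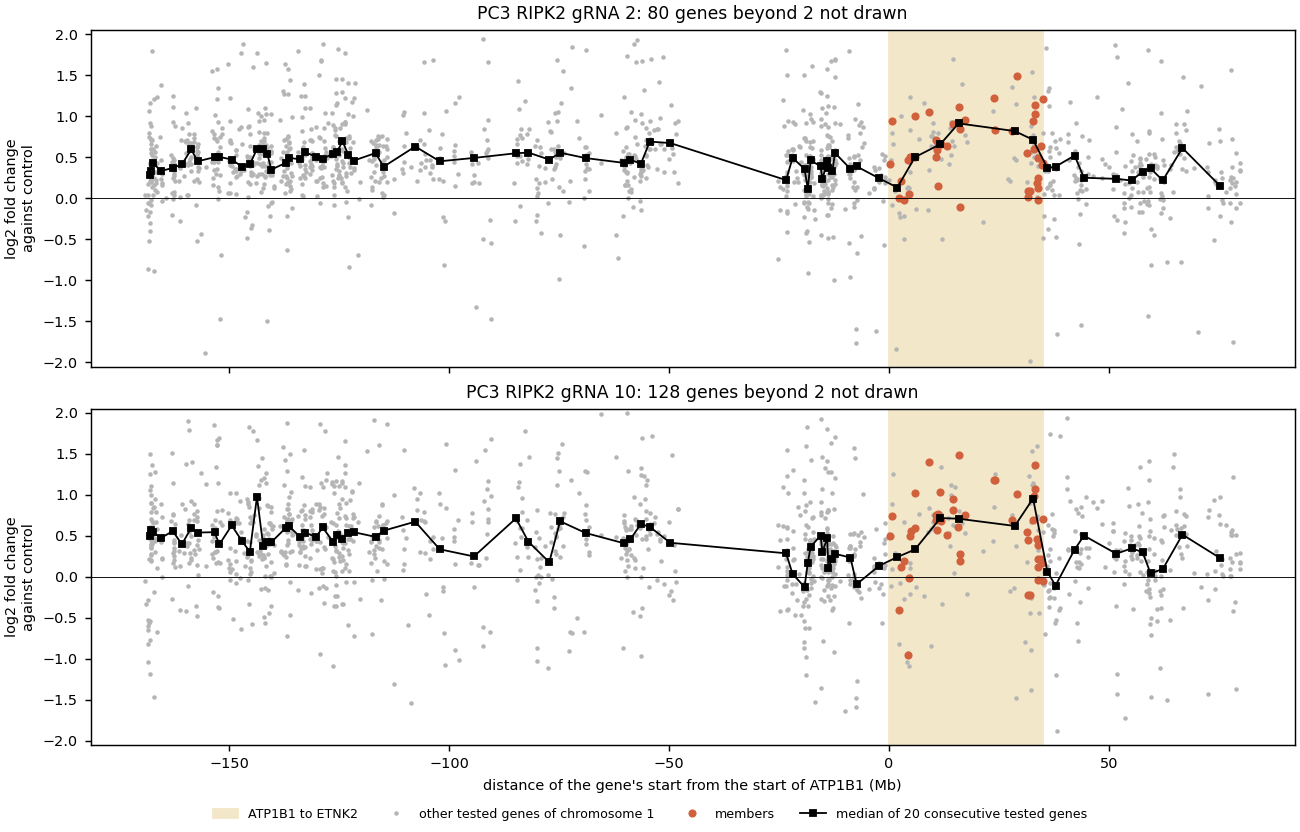
Log2 fold change (vertical axis) of tested genes of chromosome 1 in PC3 with gRNA 2 (upper panel) and gRNA 10 (lower panel) by distance of the gene's start from the start of ATP1B1 in Mb (horizontal axis). Orange points are the members, grey points the other genes, black squares medians of 20 consecutive tested genes and the shaded band the stretch from ATP1B1 to ETNK2; 80 genes beyond 2 on the log2 scale are not drawn in the upper panel and 128 in the lower. The medians lie above 0 all along 1p and inside the band. With gRNA 10, 12 of 14 lie above 0 on 1q before the band and 10 of 11 after it.

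The genes next to the stretch varied. SFT2D2 and TBX19, the last tested genes before ATP1B1, had log2 fold changes of 0.23 ± 0.05 and 0.14 ± 0.05 (SE), and 0.18 ± 0.18 and 0.65 ± 0.17, with gRNA 2 and gRNA 10. After ETNK2, GOLT1A was at -2.07 ± 0.22 and -4.03 ± 0.29. It had 79 to 92 counts in the controls, 10 to 26 with gRNA 2 and 3 to 9 with gRNA 10. Inside the stretch, PTGS2, the inducible cyclooxygenase, was among the lowest of the other genes. It had 43 to 50 counts in the controls, 0 to 5 with gRNA 2 and 5 to 7 with gRNA 10. IGFN1 was at -1.99 ± 0.23 and -0.44 ± 0.18. For IGFN1 and gRNA 10, a fit that left out gRNA 10 replicate 1 gave -0.29, and 1 that left out gRNA 10 replicate 2 gave -0.75. LHX9, a homeobox factor, was at 0.47 ± 0.15 and -1.49 ± 0.20, on opposite sides of 0. At the other end, C1orf21 was at 4.41 ± 0.24 and 3.55 ± 0.27, from just 3 to 7 counts in the controls. It had 102 to 122 counts with gRNA 2 and 60 to 66 with gRNA 10. ADORA1, an adenosine receptor, had 0 to 2 counts in the controls, 21 to 25 with gRNA 2 and 1 to 8 with gRNA 10. NPL, an enzyme of sialic acid breakdown, had 0 counts in all 3 controls, 15 to 24 with gRNA 2 and 1 to 5 with gRNA 10.

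The members were not uniform among themselves, and their change differed with how strongly they were counted. The 13 members with the highest mean CPM over the 9 PC3 libraries, above 87.8 CPM, had medians of 0.15 and 0.11 with gRNA 2 and gRNA 10. The 13 with the lowest, up to 25.7 CPM, had medians of 0.94 and 0.81, and the groups between them 0.62 and 0.68, then 0.75 and 0.65. In the highest of these ranges, the 10 other genes of the stretch had medians of 0.55 and 0.49, the 173 genes of 1p 0.39 and 0.46, and genes off chromosome 1 -0.06 and -0.07. In the lowest range the medians were 0.66 and 0.67, 0.58 and 0.66, and 0.003 and 0.003 in the same order. For 1q before ATP1B1 they were 0.47 and 0.27 in the lowest range and 0.30 and 0.22 in the highest. After ETNK2 they were 0.45 and 0.33, then 0.19 and 0.19. Lower medians at the highest range were thus not particular to the members. These ranges were set after the values were seen, and no test compared them.

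Of the 6 members that are pumps, transporters or receptors of membranes, 5 were called higher with gRNA 2, where 32.1% of all genes were. With gRNA 10, 5 were higher and 1 lower, where 37.9% and 35.6% of all genes were. Here and in the roles below, the calls come from the contrasts that chose the genes, so nothing is read from the counts. ATP1B1, the beta subunit that brings the sodium pump to the cell surface, stood at 12.4, 11.6 and 11.9 CPM in the controls, 116, 123 and 106 CPM with gRNA 2 and 80.1, 85 and 95.3 CPM with gRNA 10. Every knockout library was far above every control, with log2 fold changes of 3.26 ± 0.08 and 2.86 ± 0.08. XPR1, the phosphate exporter, was at 0.66 ± 0.07 and 1.03 ± 0.07. ATP2B4, a calcium pump of the plasma membrane, was at 0.64 ± 0.06 and 0.22 ± 0.06, and ADIPOR1, an adiponectin receptor, at -0.01 ± 0.04 and 0.11 ± 0.04. TMEM183A was at 0.49 ± 0.05 and 0.21 ± 0.05. TMEM9, a lysosomal membrane protein, stood at 290.2, 271 and 290.3 CPM in the controls, 297, 296 and 315 CPM with gRNA 2 and 248, 232 and 249 CPM with gRNA 10. Its gRNA 2 libraries lay just above the controls and its gRNA 10 libraries below them, at 0.09 ± 0.04 and -0.22 ± 0.04.

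The 10 genes of the Golgi, the endoplasmic reticulum (ER) and the nuclear envelope had log2 fold changes from -0.02 to 0.94 with gRNA 2. With gRNA 10 they ran from 0.19 to 0.77. With gRNA 2, 8 were called higher, where 32.1% of all genes were, and with gRNA 10, 10 were, where 37.9% were. SCYL3, a pseudokinase, was at 0.94 ± 0.12 and 0.74 ± 0.13, and STX6, a SNARE protein that fuses vesicles at the trans-Golgi network, at 0.66 ± 0.05 and 0.68 ± 0.05. TOR1AIP2 and TOR1AIP1, neighbouring genes whose proteins activate torsin ATPases, were at 0.72 ± 0.06 and 0.75 ± 0.06, and at 0.50 ± 0.06 and 0.68 ± 0.06. EDEM3, which acts in the breakdown of misfolded glycoproteins, was at 0.92 ± 0.06 and 0.61 ± 0.06. The golgin BLZF1 was at 0.42 ± 0.06 and 0.50 ± 0.06, the Rab regulator RABGAP1L at 0.50 ± 0.08 and 0.55 ± 0.08 and RABIF at 0.13 ± 0.06 and 0.38 ± 0.06. QSOX1, a secretory enzyme that forms disulfide bonds, stood at 375, 364 and 366 CPM in the controls, 399, 419.8 and 407 CPM with gRNA 2 and 621, 609.6 and 649 CPM with gRNA 10. Both guides lay above the controls for QSOX1, and gRNA 10 above gRNA 2. SUCO was at -0.02 ± 0.04 and 0.19 ± 0.04.

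Of the 7 genes of the ubiquitin system, 6 were called higher with gRNA 2 and 5 with gRNA 10, where 32.1% and 37.9% of all genes were. UCHL5, a deubiquitinase of the proteasome, was at 1.22 ± 0.06 and 1.18 ± 0.06. UBE2T, the conjugating enzyme of the Fanconi anaemia repair pathway, was at 1.13 ± 0.09 and 1.36 ± 0.09, and CACYBP, a partner of a ubiquitin ligase, at 1.0 ± 0.05 and 1.02 ± 0.05. RC3H1, the RNA-binding protein Roquin, was at 0.50 ± 0.08 and 0.50 ± 0.08. IVNS1ABP, a kelch-repeat protein, was at 0.85 ± 0.06 and 0.19 ± 0.06. KLHL20, a substrate adaptor of a cullin ligase, stood at 100.4, 105 and 108 CPM in the controls, 112, 107 and 106 CPM with gRNA 2 and 100.2, 107 and 102 CPM with gRNA 10. Its groups overlapped. KLHL12, an adaptor of the same kind of ligase, was at 0.25 ± 0.05 and -0.04 ± 0.05.

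Among the 8 tested genes of RNA processing, translation and nuclear transport, 5 were called higher with gRNA 2, where 32.1% of all genes were. With gRNA 10, 5 were higher and 1 lower, where 37.9% and 35.6% of all genes were. PRRC2C stood at 507, 615 and 566 CPM in the controls, 552, 608 and 533 CPM with gRNA 2 and 429.9, 469 and 379 CPM with gRNA 10. Its gRNA 2 libraries overlapped the controls and its gRNA 10 libraries lay below them, at -0.40 ± 0.10 on the log2 scale. TPR, which builds the basket of the nuclear pore, was at 0.96 ± 0.04 and 0.75 ± 0.05, and IPO9, an importin, at 0.94 ± 0.04 and 0.69 ± 0.04. SNRPE, a core protein of the spliceosome, was at 0.40 ± 0.09 and 0.17 ± 0.09. DDX59, an RNA helicase, was at 0.01 ± 0.06 and 0.44 ± 0.06, and METTL13 at 0.21 ± 0.04 and 0.11 ± 0.04.

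Within the head-to-head pairs printed above, the values of ARPC5 and RGL1 lay apart with gRNA 2, and those of TRMT1L and SWT1 with both guides. ARPC5, a subunit of the actin-nucleating Arp complex, was at 0.91 ± 0.05 and 0.95 ± 0.05, and RGL1 at 2.13 ± 0.10 and 0.81 ± 0.11. TRMT1L, a relative of tRNA methyltransferases, stood at 6.29 to 7.21 CPM in the controls, 14 to 15.1 with gRNA 2 and 17.1 to 20.4 with gRNA 10, with no overlap between the groups, at 1.11 ± 0.09 and 1.48 ± 0.09. SWT1, an RNA endonuclease, stood at 1.19 to 1.70, 1.04 to 1.58 and 1.59 to 1.79 CPM in the same order, and both knockout groups overlapped the controls, at -0.10 ± 0.23 and 0.28 ± 0.22. The annotated spans of TRMT1L and SWT1 overlap by 478 bases, and 16 of the 51 genes overlap another protein-coding gene. The libraries were strand-specific, but whether the counting used the strand is not given in the sources used here, so reads of overlapping genes cannot be assigned with certainty.

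Promoter windows were found for 45 of the 51 genes. Their median GC content was 61.3%, against 65.3% over the 11474 tested PC3 genes with a window. The GC box GGGCGG was found in 34 of them (75.6%), against 69.5% of all windows. The CCAAT box was found in 17 (37.8%), against 36.4%. The TATA box, searched as TATAAA, was in 2 (4.44%), against 5.88%. The E-box, searched as CACGTG, was in 6 (13.3%), against 9.77%. Both strands were searched, and a match describes only the letters of the window.

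Of the 7 genes of the cytoskeleton, the centrosome and mitosis, 6 were called higher with gRNA 2, where 32.1% of all genes were. With gRNA 10, 6 were higher and 1 lower, where 37.9% and 35.6% of all genes were. NEK7, a mitotic kinase also needed by an inflammasome, was at 1.49 ± 0.07 and 1.01 ± 0.07, and PPP1R12B, a subunit of myosin phosphatase, at 1.03 ± 0.11 and 1.06 ± 0.11. The centrosome protein CEP350 was at 0.59 ± 0.12 and 0.57 ± 0.12, and KIF14, a motor of cytokinesis, at 0.55 ± 0.07 and 0.55 ± 0.07. CAMSAP2, which holds microtubule minus ends, stood at 135, 146 and 143 CPM in the controls, 155, 157 and 139 CPM with gRNA 2 and 118, 134 and 113 CPM with gRNA 10. Its gRNA 10 libraries lay below the controls, and its gRNA 2 libraries overlapped them. KIF21B, a kinesin, had 0, 0 and 0 counts in the controls, 0, 4 and 2 counts with gRNA 2 and 49, 55 and 53 counts with gRNA 10. Set against a floor of 3 counts per library, the gRNA 10 level of KIF21B was at least 17.3-fold higher. With KIF21B at its bound, the medians of the members were 0.60 and 0.60.

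Both regulators of small GTPases were higher with both guides. RASAL2, which switches Ras off, stood at 13, 14.6 and 12.8 CPM in the controls, 27.7, 29.6 and 26.7 CPM with gRNA 2 and 35.9, 37.1 and 33.4 CPM with gRNA 10. Neither knockout group overlapped the controls, and the log2 fold changes were 1.05 ± 0.07 and 1.39 ± 0.07. RGL1, which activates Ral, stood at 3.65, 4.33 and 4.82 CPM in the controls, 18.9, 18.8 and 18.5 CPM with gRNA 2 and 6.82, 7.90 and 7.79 CPM with gRNA 10. All its knockout libraries lay above the controls, and those with gRNA 2 above those with gRNA 10.

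The 4 tested transcription and chromatin genes were all called higher with gRNA 2, and 3 of them with gRNA 10, where 32.1% and 37.9% of all genes were. CDC73, a subunit of the PAF1 elongation complex, was at 0.83 ± 0.06 and 1.18 ± 0.06, and ZBTB41, a zinc finger protein, at 0.82 ± 0.10 and 0.69 ± 0.10. KDM5B, a histone demethylase, stood at 106, 120.3 and 116 CPM in the controls, 128, 132 and 129 CPM with gRNA 2 and 149, 162 and 158 CPM with gRNA 10. Its 3 groups did not overlap. SOX13, a transcription factor of the SOX family, stood at 61.1 to 65.3 CPM in the controls, 141 to 149.8 CPM with gRNA 2 and 58.9 to 62.1 CPM with gRNA 10. It was at 1.21 ± 0.04 with gRNA 2 and -0.05 ± 0.05 with gRNA 10, where its libraries overlapped the controls.

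Among the metabolic genes, PRDX6, a peroxiredoxin, went in opposite directions. It stood at 885, 859 and 873 CPM in the controls, 1196, 1217 and 1195 CPM with gRNA 2 and 448, 436 and 464 CPM with gRNA 10. The groups did not overlap, and the log2 fold changes were 0.46 ± 0.03 and -0.96 ± 0.03. GLUL, glutamine synthetase, was at 0.64 ± 0.04 and 0.51 ± 0.04, and ACBD6, which binds acyl-CoA, at 0.67 ± 0.06 and 0.72 ± 0.06. ETNK2, an ethanolamine kinase and the last gene of the stretch, stood at 26.7, 25.9 and 28 CPM in the controls, 33.7, 36.7 and 38.8 CPM with gRNA 2 and 43.4, 43.1 and 44.4 CPM with gRNA 10. Neither knockout group of ETNK2 overlapped the controls. Of the mitochondrial genes, TIMM17A, part of the import channel of the inner membrane, stood at 36.4, 34.3 and 31.7 CPM in the controls, 51.2, 51.6 and 52.9 CPM with gRNA 2 and 66.3, 67.4 and 69.4 CPM with gRNA 10. All its knockout libraries lay above the controls. MRPS14, a protein of the mitochondrial ribosome, was at 0.50 ± 0.08 and 0.60 ± 0.08.

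**Figure D4:**
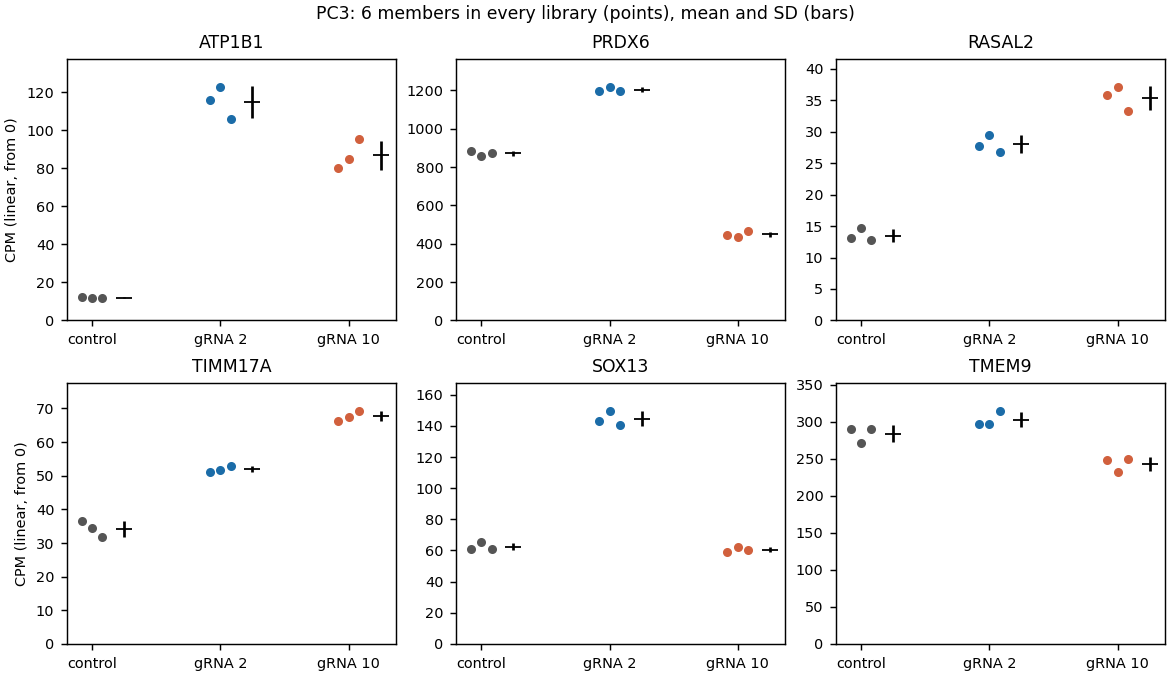
CPM (vertical axis, from 0) of 6 members in each PC3 library, by group (horizontal axis), with the mean and SD of the 3 libraries beside the points. ATP1B1, RASAL2 and TIMM17A lie above the controls with both guides, SOX13 with gRNA 2, and PRDX6 lies above the controls with gRNA 2 and below them with gRNA 10.

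The PC3 guides were also set against each other, in libraries that chose the genes. The median difference of the 50 genes, gRNA 10 minus gRNA 2, was 0.01, with quartiles at -0.27 and 0.22. Of the members, 15 were called higher with gRNA 10, where 36.9% of all genes tested were, and 18 lower, where 36.5% were. PRDX6 and TMEM9 were called in opposite directions against the shared controls, where 15.5% of all genes were.

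A list of other 1q genes described in cancers holds 26 tested genes. In PC3, 22 of them were called higher and 3 lower with gRNA 2, and 20 higher and 2 lower with gRNA 10, with medians of 0.42 and 0.31. Of all genes tested, 32.1% were higher and 31.5% lower with gRNA 2, and 37.9% and 35.6% with gRNA 10. BTG2, an antiproliferative gene, was at 2.91 ± 0.14 and -0.44 ± 0.23, and ASPM, a spindle pole protein, at 1.36 ± 0.07 and 0.75 ± 0.08. MDM4, an inhibitor of p53, was at 0.34 ± 0.06 and -0.70 ± 0.07, and PTGS2, described above, belongs to the list too.

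In 22Rv1 and DU145 the medians were closer to 0 than in PC3. The members were picked for their rise in PC3, with earlier results of these data known, so the choice favoured this difference. In 22Rv1 with gRNA 1, 4 of the 50 rose, where 25.6% of all 15198 genes tested were called higher, and 17 fell, where 22.9% were called lower. With gRNA 10, 7 rose, where 20% of all genes were called higher, and 7 fell, where 20.6% were called lower. The medians of the members were -0.17 and 0.01, those of 1p -0.03 and -0.02, and those of the 93 other genes of the stretch -0.06 and -0.07. Replicate 3 of gRNA 1, the library with the high mitochondrial share, had a median over the members of -0.42, against -0.11 and -0.10 in the other libraries of its group. The control libraries themselves ran from -0.09 to 0.12, with 11 to 40 of the 50 genes above the control mean. Without replicate 3 of gRNA 1, 7 rose and 21 fell with gRNA 1, at a median of -0.13, where 27.4% of all genes rose and 27.1% fell. In that fit 11 rose and 12 fell with gRNA 10, where 29.3% and 29.1% of all genes did. Without control replicate 2, 11 fell with gRNA 1, where 19% of all genes did.

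Of the members, 3 rose with both guides in 22Rv1, where 12.4% of all genes did. ATP2B4 stood at 16.6, 15.4 and 14.6 CPM in the controls, 33.1, 30.9 and 22.7 CPM with gRNA 1 and 25.5, 26.5 and 27.4 CPM with gRNA 10. Neither knockout group overlapped the controls, and the log2 fold changes were 0.89 ± 0.14 (adjusted p = 0.000407, edgeR) and 0.77 ± 0.14 (adjusted p = 0.00119). RASAL2 stood at 17.8, 19.7 and 15.6 CPM in the controls, 26.8, 28.8 and 26 CPM with gRNA 1 and 27.8, 30.2 and 30.1 CPM with gRNA 10. All 6 knockout libraries of RASAL2 lay above the controls, at 0.62 ± 0.11 (adjusted p = 0.000896, edgeR) and 0.73 ± 0.11 (adjusted p = 0.000322). RGL1 stood at 1.33, 1.45 and 1.07 CPM in the controls, 2.82, 2.11 and 1.61 CPM with gRNA 1 and 2.74, 2.58 and 3.55 CPM with gRNA 10. Its knockout libraries lay above the controls, at 0.76 ± 0.26 (adjusted p = 0.0337, edgeR) and 1.20 ± 0.26 (adjusted p = 0.00355). The RGL1 call with gRNA 1 was lost in 6 of the 9 fits that leave out 1 library. These were the fits without any 1 control (adjusted p = 0.0534 to 0.108, edgeR), without gRNA 1 replicate 1 (0.133) or 2 (0.0566) and without gRNA 10 replicate 1.

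Of the members, 4 fell with both guides in 22Rv1, where 12.3% of all genes did. GLUL stood at 238, 240.5 and 228 CPM in the controls, 188, 198 and 138 CPM with gRNA 1 and 104, 103 and 102 CPM with gRNA 10. The groups did not overlap, and GLUL changed by -0.43 ± 0.12 (adjusted p = 0.0146, edgeR) and -1.19 ± 0.12 (adjusted p = 2.81e-05). PRDX6 stood at 469.6, 466 and 459.5 CPM in the controls, 368, 390.2 and 331 CPM with gRNA 1 and 379, 362 and 361 CPM with gRNA 10. Every knockout library of PRDX6 was below every control, at -0.36 ± 0.08 (adjusted p = 0.00500, edgeR) and -0.34 ± 0.08 (adjusted p = 0.00734). ZBTB41 stood at 74.2, 97.4 and 64 CPM in the controls, 65.7, 59.2 and 35.7 CPM with gRNA 1 and 48.4, 48.1 and 51 CPM with gRNA 10. Its gRNA 1 libraries overlapped the controls, and the changes were -0.55 ± 0.21 (adjusted p = 0.0494, edgeR) and -0.67 ± 0.21 (adjusted p = 0.0250). Without control replicate 2, ZBTB41 had an adjusted p of 0.210 and 0.120 in edgeR, and its calls were lost in 6 and 5 of the 9 fits that leave out 1 library. TOR1AIP2, named to complete the count, changed by -0.44 ± 0.09 (adjusted p = 0.00217, edgeR) and -0.25 ± 0.09 (adjusted p = 0.0452), and its gRNA 10 call was lost in 8 of those fits.

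A few further members were chosen after their values were seen. ATP1B1 went in opposite directions with the 22Rv1 guides, where 2.43% of all genes did. It stood at 56.2, 66.9 and 56.7 CPM in the controls, 83.4, 87.4 and 78.3 CPM with gRNA 1 and 42.2, 42.9 and 47.1 CPM with gRNA 10, changes of 0.47 ± 0.10 (adjusted p = 0.00319, edgeR) and -0.44 ± 0.10 (adjusted p = 0.00532). KDM5B fell with gRNA 1, from 54.1 to 62.9 CPM in the controls to 23 to 26.7 CPM (-1.26 ± 0.10, adjusted p = 3.58e-06, edgeR), and stood at 54.4 to 56 CPM with gRNA 10. KIF21B rose with gRNA 10, from 3.17 to 3.64 CPM to 6.90 to 9.66 CPM (1.28 ± 0.17, adjusted p = 0.000132, edgeR).

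In DU145 with gRNA 2, 11 of the 50 rose, where 17.1% of all 14908 genes tested did, and 2 fell, KDM5B and RASAL2, where 17.0% did. With gRNA 10, 14 rose, where 20.2% of all genes did, and none fell in edgeR's test, where 19.8% did, with 1 lower at an unadjusted p under 0.05 and 0 with DESeq2. The medians of the members were 0.09 and 0.17, those of 1p -0.05 and -0.11, and those of the 89 other genes of the stretch -0.06 and 0.08. Without gRNA 2 replicate 3, the library that stood apart, 17 rose and 4 fell with gRNA 2, where 23.2% of all genes rose and 22.7% fell. In that fit 25 rose and 3 fell with gRNA 10, where 29.4% and 29% of all genes did. Without control replicate 1, 2 or 3, 6, 6 and 4 rose with gRNA 2, where 10.5%, 10.9% and 10.8% of all genes did. RASAL2, which fell with gRNA 2 at -0.32 ± 0.10 (adjusted p = 0.0323, edgeR), lost that call in 6 of the 9 fits that leave out 1 library. KDM5B was at -0.60 ± 0.13 (adjusted p = 0.00626).

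Of the members, 6 rose with both guides in DU145, where 8.05% of all genes did. None fell with both, where 8.02% of all genes did, and none went in opposite directions, where 2.40% did. QSOX1 stood at 193, 178 and 198 CPM in the controls, 338, 273 and 337 CPM with gRNA 2 and 253, 297 and 283 CPM with gRNA 10. Every knockout library was above every control, at 0.74 ± 0.10 (adjusted p = 0.000521, edgeR) and 0.55 ± 0.10 (adjusted p = 0.00185). IVNS1ABP stood at 41, 45.8 and 39.8 CPM in the controls, 81.1, 97.4 and 69.9 CPM with gRNA 2 and 61.2, 58.8 and 57.4 CPM with gRNA 10. The groups did not overlap, and the changes were 0.97 ± 0.12 (adjusted p = 0.000237, edgeR) and 0.49 ± 0.12 (adjusted p = 0.00805). UBE2T stood at 43.8, 45.6 and 48.2 CPM in the controls, 60.2, 62.1 and 84.1 CPM with gRNA 2 and 61.7, 57.4 and 61.5 CPM with gRNA 10. All 6 knockout libraries were above the controls, at 0.58 ± 0.12 (adjusted p = 0.00501, edgeR) and 0.39 ± 0.12 (adjusted p = 0.0272). The gRNA 10 call of UBE2T was lost without any 1 control (adjusted p = 0.0568 to 0.101, edgeR) and without any 1 gRNA 10 library (0.0521 to 0.0838).

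The others that rose with both guides in DU145 were ATP1B1, BLZF1 and GLUL, named to complete the count. ATP1B1 stood at 162, 163 and 164 CPM in the controls, 196, 201 and 201 CPM with gRNA 2 and 283, 267 and 257 CPM with gRNA 10, changes of 0.29 ± 0.07 (adjusted p = 0.00937, edgeR) and 0.72 ± 0.07 (adjusted p = 2.97e-05). BLZF1 changed by 0.35 ± 0.09 (adjusted p = 0.0107, edgeR) and 0.34 ± 0.09 (adjusted p = 0.00916). GLUL stood at 96.9, 91.4 and 95.1 CPM in the controls, 114, 104 and 142 CPM with gRNA 2 and 153, 150.4 and 145 CPM with gRNA 10, changes of 0.35 ± 0.11 (adjusted p = 0.0289, edgeR) and 0.66 ± 0.11 (adjusted p = 0.000780). Its gRNA 2 call was lost without any 1 control (adjusted p = 0.0773 to 0.105, edgeR) and without gRNA 10 replicate 3. NEK7, chosen after its value was seen, rose with gRNA 10, from 60.0 to 63 CPM in the controls to 138 to 154 CPM (1.23 ± 0.10, adjusted p = 1.08e-05, edgeR), and stood at 56.7 to 73.4 CPM with gRNA 2.

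**Figure D5:**
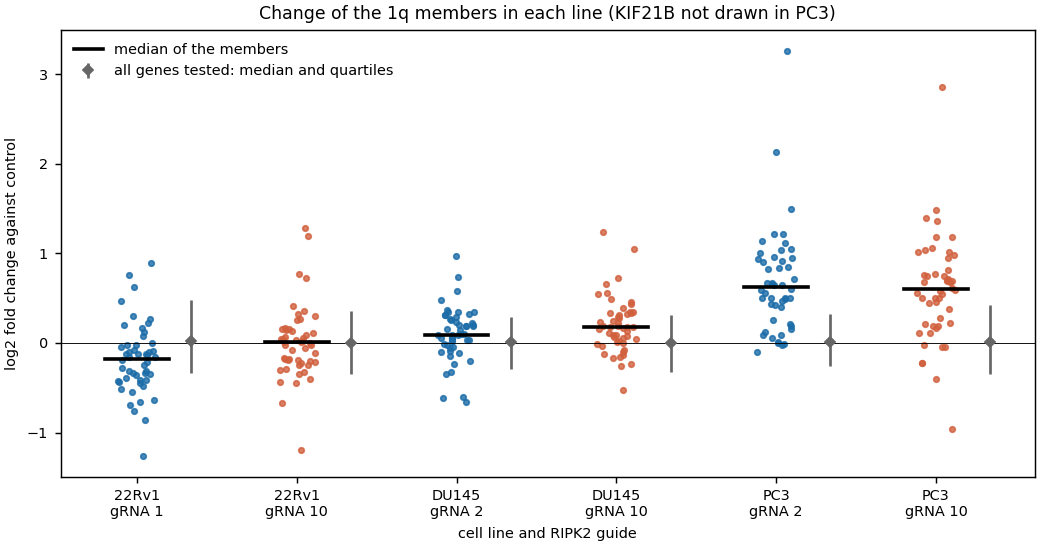
Log2 fold change (vertical axis) of the 1q members in each line and guide (horizontal axis). Points are members, black bars their medians, and grey diamonds with bars the median and quartiles of all genes tested; KIF21B is not drawn in PC3. The PC3 medians are 0.62 and 0.60, those of 22Rv1 -0.17 and 0.01 and those of DU145 0.09 and 0.17.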

How the data were processed

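Strand-specific mRNA libraries were sequenced, and the authors deposited whole-number read counts per gene symbol, 1 table per line. Per the submitters' processing notes, hg38, FastQC, STAR and edgeR were used; versions, the counter and the annotation are not given in the sources used here. Rows with the same symbol were summed. Each line's 9 libraries were fitted together with edgeR 4.0.16 in R 4.3.3 (TMM, filterByExpr with a minimum count of 10 and total of 15, quasi-likelihood F test with robust dispersion, group as the only term), with Benjamini-Hochberg adjustment over all genes tested and a threshold of 0.05. DESeq2 1.42.0 was an alternative. The fits were tested on simulated counts. Positions come from RefSeq GRCh38.p14, which placed 99.7% of the tested symbols. It gives no arms, so chromosome 1 was split at its widest gap between genes and other chromosomes were kept whole. No library repeated another of its group within sampling noise. Replicate numbers are those of the sample titles.

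The members and lists were chosen with earlier results of these data known, and PC3 values of the members are descriptions with no test. Values in every PC3 library are given for the first and last member, the 3 members with the highest and the 3 with the lowest mean change, and the most strongly counted member of each role. Outside this rule, ranges over the PC3 libraries are also given for SOX13, TRMT1L and SWT1, and SOX13 is drawn. In 22Rv1 and DU145 the named members are up to 3 rises and 3 falls shared by both guides whose smaller change is largest. Of the other genes of the stretch, the 3 highest and 3 lowest are named, with neighbouring genes on either side and the 2 highest and 2 lowest of the other 1q list. Some genes that these rules cover are not reported here.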

Additional observations from a re-analysis of the deposited data

Results flagged for a closer look

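For 9 of the members, all 6 knockout libraries of 1 line lay above their controls and all 6 of another line lay below theirs. The difference between the lines was not tested, and how many of all genes meet this rule was not counted. Several changes did not pass edgeR's test. PPP1R12B in 22Rv1 passed with neither guide (adjusted p = 0.119 and 0.155, edgeR), nor did ATP2B4 in DU145 (0.111 and 0.156). With gRNA 10, CACYBP (0.229), EDEM3 (0.128), CDC73 (0.0935) and UCHL5 (0.0647) in 22Rv1 and RASAL2 (0.353) and TOR1AIP2 (0.0796) in DU145 did not. With gRNA 2 in DU145, EDEM3 (0.0506) and CDC73 (0.0793) did not. The values below are mean log2 fold changes over both guides. CACYBP stood at -0.25 in 22Rv1 and 1.01 in PC3. RASAL2 stood at 0.67 in 22Rv1, -0.22 in DU145 and 1.22 in PC3. TOR1AIP2 stood at -0.35 in 22Rv1, 0.22 in DU145 and 0.73 in PC3. GLUL stood at -0.81 in 22Rv1, 0.51 in DU145 and 0.57 in PC3. EDEM3 stood at -0.47 in 22Rv1, 0.44 in DU145 and 0.76 in PC3. UCHL5 stood at -0.37 in 22Rv1 and 1.20 in PC3. CDC73 stood at -0.63 in 22Rv1, 0.26 in DU145 and 1.0 in PC3. PPP1R12B stood at -0.33 in 22Rv1 and 1.05 in PC3. ATP2B4 stood at 0.83 in 22Rv1, -0.56 in DU145 and 0.43 in PC3. PC3 values chose the members, so a pair that includes PC3 has 1 direction that the choice favours.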

How the results depend on the processing

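The PC3 counts of members called higher and lower stayed within 1.5 times under every alternative tried: other size factors, DESeq2, no filter, at least 10 counts in every library, a replicate block, fits of just the 6 libraries of a contrast, and leaving out each library. Those of 22Rv1 and DU145 did not. When each fit held just the 6 libraries of its contrast, 11 members fell in 22Rv1 with gRNA 1, and 11 rose and 11 fell with gRNA 10, where 17.4%, 29.1% and 28.1% of all genes did. In DU145, 6 rose and 1 fell with gRNA 2 (all genes 11.9% and 11.2%), and 29 rose and 6 fell with gRNA 10 (all genes 33.3% and 32.9%). In the same fits the PC3 medians were 0.58 for the other genes of the stretch with gRNA 10 and 0.49 for 1p with gRNA 2. With no filter the median of the members with gRNA 2 was 0.60, and those of 1p were 0.49 and 0.48. With at least 10 counts in every library, 1p stood at 0.48 and 0.48 and the other genes of the stretch at 0.54 with gRNA 10. For 1p with gRNA 2, other size factors gave 0.49 and DESeq2 0.49. Leaving out 1 library gave ranges, first guide first. Members higher were 3 to 7 and 4 to 11 in 22Rv1, 4 to 17 and 11 to 25 in DU145 and 41 to 43 and 40 to 42 in PC3. Members lower were 11 to 21 and 3 to 12, 1 to 4 and 0 to 3 and, in PC3, 0 to 0 and 4 to 4. In these fits 14.7% to 29.3% of all genes were called in 1 direction in 22Rv1, 10.5% to 29.4% in DU145 and 28.9% to 37.6% in PC3. Medians of the members ran from -0.26 to -0.13 and from -0.025 to 0.013 for 22Rv1, from 0.06 to 0.15 and 0.14 to 0.19 for DU145, and from 0.60 to 0.64 and 0.57 to 0.66 for PC3. In PC3, medians were 0.64 to 0.67 and 0.56 to 0.64 for the other genes of the stretch, 0.49 to 0.50 and 0.49 to 0.51 for 1p, 0.34 to 0.37 and 0.23 to 0.27 for 1q before ATP1B1 and 0.32 to 0.34 and 0.23 to 0.29 after ETNK2. PPP1R12B in DU145 with gRNA 2 ran from -0.21 to 0.12 and changed sign, to 0.12, without gRNA 2 replicate 3. Of the single-gene values over all alternatives, 35 lost and 8 gained a call in 22Rv1, and 27 and 26 in DU145. The causes were not tested.

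Same-numbered libraries did not deviate together in every pair (correlations -0.08 to 0.34 in 22Rv1, -0.19 to 0.07 in DU145 and -0.05 to 0.06 in PC3). Those numbers are from the titles, and the library names number some replicates differently, so this check cannot exclude that libraries were paired. With the replicate number as a block, the counts were 4 higher and 18 lower with gRNA 1 and 7 higher and 6 lower with gRNA 10 in 22Rv1, 9 higher and 2 lower with gRNA 2 and 13 higher and 0 lower with gRNA 10 in DU145, and 42 higher and 0 lower with gRNA 2 and 42 higher and 4 lower with gRNA 10 in PC3, where 20.5% to 25.6%, 14.8% to 18.5% and 32% to 38.2% of all genes were called in 1 direction. The biological coefficient of variation, the spread between libraries that edgeR fitted, was 14.2% for 22Rv1, 12.3% for DU145 and 3.55% for PC3.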
